A study of Mus musculus with 12 samples.

Results

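The platelet-derived growth factor (PDGF) genes comprise 4 ligands, Pdgfa, Pdgfb, Pdgfc and Pdgfd, and 2 receptors, Pdgfra and Pdgfrb. They were taken by symbol from the annotated rows of an array table, with the brightest row standing for each gene. All 6 had a row, of 30790 genes represented in the table. Their levels were compared across lymphatic endothelial cells (LEC) of capillaries (cap LEC), pre-collecting vessels (pre-col LEC) and collecting vessels (col LEC), and blood endothelial cells (BEC), with 3 arrays in each of the 4 groups. All cells came from ear skin of C57BL6 mice with the reporter transgene Tg(Prox1-EGFP)KY221Gsat, in which GFP follows Prox1, the transcription factor of lymphatic identity. The labels name no treatment. The sample labels call the mice adult and the design text gives an age of 5 weeks.

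PECAM1, an adhesion protein of all endothelium, was used to enrich the cells on beads. Live LEC were then sorted as positive for podoplanin (PDPN) and Prox1-GFP and divided by LYVE1, a hyaluronan receptor. High LYVE1 defined cap LEC, intermediate LYVE1 pre-col LEC, and low or absent LYVE1 col LEC. BEC lacked PDPN, Prox1-GFP and LYVE1 and so pool arterial, capillary and venous cells of the blood vessels. The vessel types are therefore sort gates on a surface protein, not dissected vessels. The replicates are labelled as biological, without saying whether each is 1 mouse or a pool, so p-values measure the spread between these samples.

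PDGF ligands are secreted dimers, and their receptors are class III receptor tyrosine kinases that dimerise when a ligand binds. The A and C chains act mainly on the alpha receptor, which fibroblasts and other mesenchymal cells carry. The B and D chains act mainly on the beta receptor of pericytes and vascular smooth muscle cells. In blood vessels the endothelium secretes PDGF-B, which is held close to the cell by heparan sulfate and recruits mural cells. Lymphatic capillaries lack a mural coat, whereas collecting vessels carry smooth muscle. PDGF-C and PDGF-D are made in latent form and are activated by cleavage.

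The values are log2 intensities after RMA (robust multi-array average), so a difference of 1 is a doubling of signal, and levels are not compared between genes. Over all 12 arrays, the array median was 6.06 to 6.17. Lymphatic markers averaged 11.86 to 12.68 on the LEC arrays and 7.11 to 8.24 on the BEC arrays, and pan-endothelial markers 11.37 to 11.80 on every array. The lymphatic list includes Prox1, Pdpn and Lyve1, on which the cells were sorted, and the pan-endothelial list includes Pecam1, used to enrich them. These levels therefore follow in part from the sort. Of the BEC arrays, replicate 1 carried more lymphatic signal: Mmrn1 read 9.84 there and 6.55 and 6.52 in replicates 2 and 3. The mean log2 value of 14 mural markers was 8.82 to 8.98 in BEC, 6.96 to 7.38 in cap LEC and 7.03 to 7.09 in col LEC. In pre-col LEC it was 7.96 in replicate 1, against 7.33 and 7.14 in replicates 2 and 3. The mean of 10 fibroblast markers was 8.39 in pre-col LEC replicate 1 and 7.65 in col LEC replicate 1, against 6.90 to 7.27 on the other LEC arrays.

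All 6 genes passed the filter on dim genes, which asked for a value above the array's median row on at least 3 arrays. Pdgfa, Pdgfb and Pdgfrb did so on all 12 arrays, Pdgfd on 11, Pdgfra on 10 and Pdgfc on 5. Against the array's negative control rows, Pdgfa exceeded 84.3 to 93.1% of them, Pdgfb 81.2 to 97.6%, Pdgfd 56.4 to 98.9% and Pdgfrb 63.1 to 99.0%. Pdgfc exceeded 49.3 to 65.2% and Pdgfra 53.6 to 64.6%. The signals of Pdgfc and Pdgfra thus lay near the middle of the control rows on every array, where a difference in RNA may not register. Some values of the other genes were at a like level: Pdgfd exceeded 56.4, 68.6 and 63.2% of the control rows in col LEC replicates 1 to 3, and Pdgfrb 65.5 and 63.1% in cap LEC replicates 2 and 3. Folds against these groups are ratios of signals, and because the lower signal lies near the controls they may understate the difference in RNA.

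**Figure D1:**
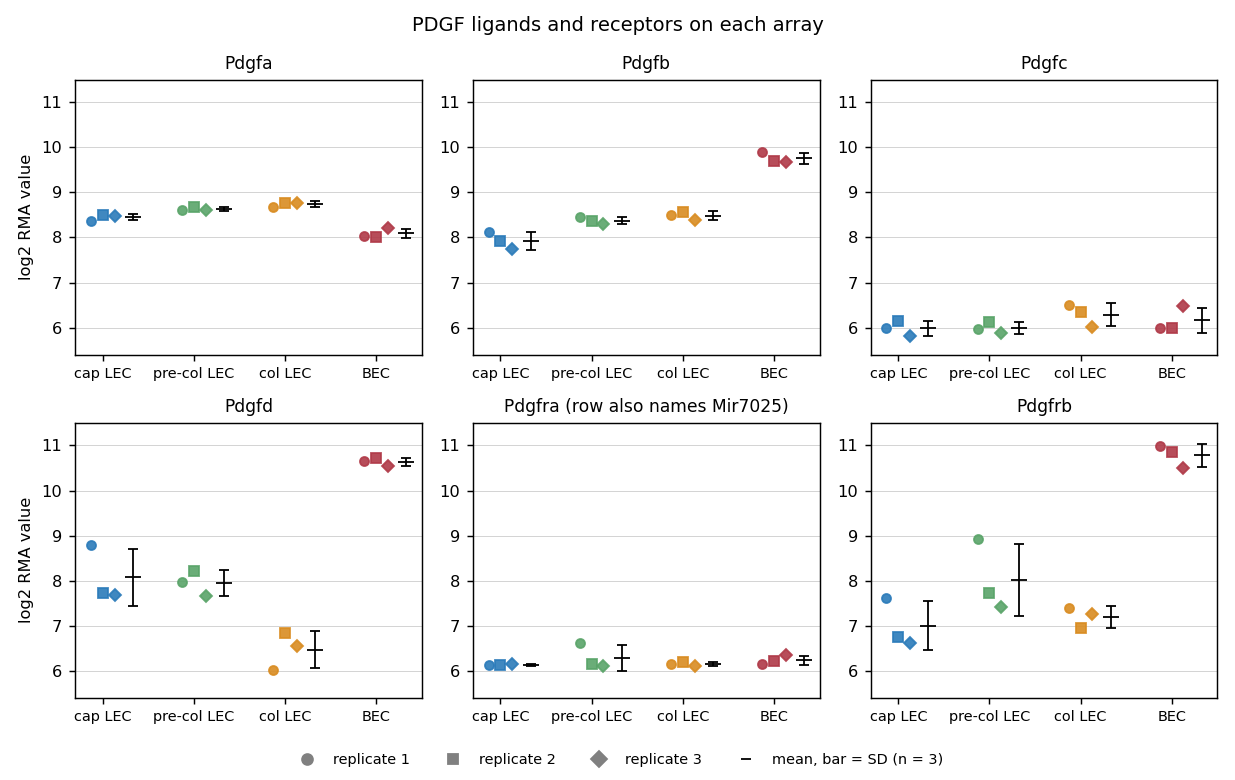
Log2 RMA value (vertical axis) of each PDGF gene on each array, by group (horizontal axis), with the group mean and SD (n = 3). BEC lie above all LEC arrays for Pdgfb, Pdgfd and Pdgfrb and below them for Pdgfa, col LEC lie lowest for Pdgfd, and Pdgfc and Pdgfra stay between 5.81 and 6.62.

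Pdgfb, which encodes the B chain, was highest in BEC and lowest in cap LEC. It read 9.90, 9.70 and 9.67 in BEC replicates 1 to 3. The values were 8.13, 7.93 and 7.74 in cap LEC, 8.45, 8.37 and 8.29 in pre-col LEC, and 8.49, 8.57 and 8.38 in col LEC. Pre-col LEC and col LEC overlapped, every cap LEC array lay below both, and every BEC array lay above all LEC arrays. Between LEC groups, Pdgfb was 1.47-fold higher in col LEC than in cap LEC (log2 difference 0.55 ± 0.11, SE, adjusted p = 0.0240, limma). Pre-col LEC minus cap LEC was 0.44 ± 0.11 (adjusted p = 0.456), and col LEC minus pre-col LEC was 0.11 ± 0.11 (adjusted p = 1.00).

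The call of Pdgfb between col LEC and cap LEC was kept in 8 of the 12 fits that left out 1 array. Leaving out a pre-col LEC or BEC array does not change the values compared, only the shared spread, and these fits all kept the call. Of the fits that left out a cap LEC or col LEC array, only those without cap LEC replicate 1 or col LEC replicate 3 kept it. The call was also kept with array weights (adjusted p = 0.00496). That setting called 798 genes in this comparison, against 327 in the main fit. A stricter filter asked for a value above the 95th percentile of the negative controls on at least 3 arrays. Pdgfb passed it only through its BEC arrays, and the adjustment then ran over 4397 genes instead of 19709. Its adjusted p there (0.00856) is therefore no support for the call. Leaving out cap LEC replicate 2 or 3, or col LEC replicate 1 or 2, gave an adjusted p of 0.0877, 0.0948, 0.0870 and 0.0970, with a difference of 0.45 to 0.65 over all 12 such fits. A fit on only these 2 groups lost the call too (adjusted p = 0.0711). Blood endothelial markers averaged 8.08 to 8.19 in col LEC and 7.73 to 7.95 in cap LEC. None of the 7 was called between these groups, their median difference was 0.14, and their part in the Pdgfb difference was not tested. The 14 mural markers had a median difference of 0.01 there, with none called.

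Compared with BEC, Pdgfb was lower in each LEC group. BEC exceeded cap LEC 3.55-fold (log2 difference of cap LEC minus BEC -1.83 ± 0.11, adjusted p = 1.26e-07). The corresponding factors were 2.61 for pre-col LEC (-1.39 ± 0.11, adjusted p = 1.61e-06) and 2.42 for col LEC (-1.28 ± 0.11, adjusted p = 3.46e-06). These 3 comparisons share the BEC arrays and are not independent of each other. Platelets carry PDGF, and 4 of 6 platelet and megakaryocyte markers were tested. Their mean was 7.43 to 7.91 in BEC, 6.94 to 7.35 in cap LEC, 7.11 to 7.17 in pre-col LEC and 7.17 to 7.47 in col LEC. All 4 read lower in each LEC group than in BEC, with median log2 differences of -0.36, -0.39 and -0.32 for cap LEC, pre-col LEC and col LEC. In these comparisons 2, 1 and 1 were called, beside 20.7, 15.6 and 16.3% of all genes. In BEC replicates 1 to 3 the mean of these markers was 7.43, 7.82 and 7.91. The part of platelet RNA in the Pdgfb level of BEC was not tested.

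Pdgfd, which encodes the D chain, had the widest range of the ligands, 6.02 to 10.72. It read 10.65, 10.72 and 10.54 in BEC. In cap LEC it was 8.79, 7.72 and 7.69, in pre-col LEC 7.97, 8.22 and 7.65, and in col LEC 6.02, 6.83 and 6.56. Cap LEC and pre-col LEC overlapped, and every col LEC array lay below every other array. The signal of Pdgfd was 3.02-fold lower in col LEC, where it lay near the control rows, than in cap LEC (log2 difference -1.60 ± 0.28, adjusted p = 0.0134). This is the opposite direction to Pdgfb, in the same pair of groups.

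Against pre-col LEC, the col LEC difference of Pdgfd was of similar size but missed the threshold (-1.48 ± 0.28, adjusted p = 0.0626). It passed with array weights (-1.33, adjusted p = 0.0372) and without cap LEC replicate 1 (adjusted p = 0.0112). That array is not part of this comparison, so the difference stayed at -1.48 and the SE fell to 0.19. The difference missed the threshold in the other 11 fits that left out 1 array (adjusted p of up to 0.224, without col LEC replicate 1). It also missed in a fit on only col LEC and pre-col LEC (adjusted p = 0.143). With the stricter filter the adjusted p was 0.0147, over fewer genes. Pdgfd passed that filter only through its BEC arrays, so this value is no support for the difference. Pre-col LEC minus cap LEC was -0.12 ± 0.28 (adjusted p = 0.935), with a 95% interval from -0.73 to 0.49. The call of col LEC against cap LEC was lost without col LEC replicate 1 (-1.37, adjusted p = 0.0592) and in a fit on only these 2 groups (adjusted p = 0.0728). Without cap LEC replicate 1, the array with the highest LEC value, the difference was -1.23 (adjusted p = 0.0215).

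That cap LEC array also had the highest list mean of its group for mural and for blood endothelial markers, though not every marker was highest there. Rgs5, a pericyte marker, was 8.75 there and 6.67 and 7.04 in replicates 2 and 3, and the mural mean was 7.38 against 6.98 and 6.96. Flt1, a blood endothelial receptor, was 7.17 there against 6.62 and 6.51. The blood endothelial mean was 7.95 there against 7.85 and 7.73. Of the same list, Plvap went the other way (9.11 against 9.74 and 9.89), and Gja5 read 6.75 against 6.79 and 6.46. Of the mural list, Mcam read lowest there (10.03 against 10.13 and 10.28), and Myh11, Cnn1 and Ndufa4l2 were not highest. In col LEC the mural means were 7.03 to 7.09 and the blood endothelial means 8.08 to 8.19. The part of mural or blood endothelial RNA in the Pdgfd level was not tested.

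Relative to BEC, Pdgfd was lower in every LEC group. BEC exceeded cap LEC 5.94-fold (-2.57 ± 0.28, adjusted p = 3.01e-05) and pre-col LEC 6.46-fold (-2.69 ± 0.28, adjusted p = 2.25e-05). The ratio of signals against col LEC, near the control rows, was 18.0 (-4.17 ± 0.28, adjusted p = 4.78e-07).

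Pdgfa, which encodes the A chain, was the member that read lower in BEC than in LEC. Its BEC values were 8.04, 8.02 and 8.20. Cap LEC read 8.37, 8.49 and 8.48, pre-col LEC 8.60, 8.68 and 8.60, and col LEC 8.67, 8.77 and 8.76. The SD within groups was 0.04 to 0.10, so small differences stood outside the spread. Pdgfa exceeded BEC 1.28-fold in cap LEC (log2 difference 0.36 ± 0.08, adjusted p = 0.00511), 1.45-fold in pre-col LEC (0.54 ± 0.08, adjusted p = 0.000294) and 1.57-fold in col LEC (0.65 ± 0.08, adjusted p = 6.40e-05).

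Among LEC, the Pdgfa values of cap LEC lay below those of pre-col LEC and col LEC without overlap, and pre-col LEC and col LEC overlapped. No difference passed the threshold: col LEC minus cap LEC was 0.29 ± 0.08 (adjusted p = 0.100), pre-col LEC minus cap LEC 0.18 ± 0.08 (adjusted p = 0.774) and col LEC minus pre-col LEC 0.11 ± 0.08 (adjusted p = 1.00). With array weights, the first of these passed (0.29, adjusted p = 0.0174), in a setting that called 798 genes there against 327 in the main fit. It missed the threshold in all 12 fits that left out 1 array (adjusted p of 0.0624 to 0.301).

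Pdgfc, which encodes the C chain, read between 5.81 and 6.51 on all arrays. Values were 5.99, 6.14 and 5.81 in cap LEC, 5.97, 6.12 and 5.87 in pre-col LEC, 6.51, 6.34 and 6.02 in col LEC, and 5.99, 6.0 and 6.48 in BEC. All groups overlapped. The widest difference, col LEC minus cap LEC, was 0.31 ± 0.16 (95% interval -0.03 to 0.65, adjusted p = 0.530), and against BEC the LEC groups differed by -0.18 to 0.13. At this signal, a difference was not detectable, which does not show that the groups were alike.

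Pdgfrb, which encodes the beta receptor, read 10.98, 10.86 and 10.50 in BEC. In cap LEC it was 7.62, 6.76 and 6.61, in pre-col LEC 8.93, 7.72 and 7.42, and in col LEC 7.40, 6.94 and 7.27. BEC lay above all LEC arrays, and pre-col LEC replicate 1 lay above all other LEC arrays. The signal in BEC exceeded that in cap LEC, near the control rows on 2 of 3 arrays, 13.8-fold (-3.78 ± 0.35, adjusted p = 7.96e-06). It exceeded pre-col LEC 6.77-fold (-2.76 ± 0.35, adjusted p = 0.000133) and col LEC 11.9-fold (-3.58 ± 0.35, adjusted p = 1.46e-05). The pre-col LEC difference from BEC without its replicate 1 was -3.21 (adjusted p = 7.86e-06).

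Pdgfrb is a defining gene of mural cells, and mural markers were high on the same arrays. All 14 mural markers were tested, and 13 were called lower in the mean of the LEC groups than in BEC. The list's median log2 difference was -1.55. Over all genes tested, that median was -0.02 and 22.7% were called. The summed linear signal of the list was 10500 to 12400 in BEC, 2561 to 3166 in cap LEC, 2670 to 5674 in pre-col LEC and 2606 to 2827 in col LEC. Rgs5 read 11.82, 11.40 and 11.12 in BEC, and Acta2, the smooth muscle actin, 9.91, 10.70 and 10.37. The part of mural RNA in the Pdgfrb level of BEC was not tested. In bulk samples such as these, fewer cells of a type and less RNA per cell cannot be told apart.

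Within LEC, no Pdgfrb difference passed the threshold. Pre-col LEC minus cap LEC was 1.03 ± 0.35 (95% interval 0.25 to 1.80, adjusted p = 0.739). It was 0.57 ± 0.27 when pre-col LEC replicate 1 was left out (adjusted p = 0.987). Col LEC minus pre-col LEC was -0.82 ± 0.35 (adjusted p = 0.799), and -0.36 without that array. Col LEC minus cap LEC was 0.21 ± 0.35 (adjusted p = 0.866). On pre-col LEC replicates 1 to 3, Pdgfrb ran in the same order as Rgs5, which read 10.21, 8.91 and 7.93, and Acta2, which read 10.21, 8.0 and 6.84. Not all mural markers kept this order. Abcc9 read 6.83, 6.37 and 7.05, Cspg4 7.03, 6.94 and 7.04, Kcnj8 7.18, 6.71 and 7.04, and Higd1b 7.64, 6.75 and 6.93. The mean of the blood endothelial markers was also highest in replicate 1, at 8.56 against a lowest pre-col LEC mean of 7.93. Plvap, of that list, read lowest in replicate 1 (9.62 against 10.03 and 10.09). None of the 14 mural markers was called between pre-col LEC and cap LEC, where 0% of all genes were called. The median difference of the mural markers was 0.22, and their part in Pdgfrb was not tested. Col LEC, the gate for vessels with a muscle coat, had Pdgfrb and mural values within or near the range of cap LEC.

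**Figure D2:**
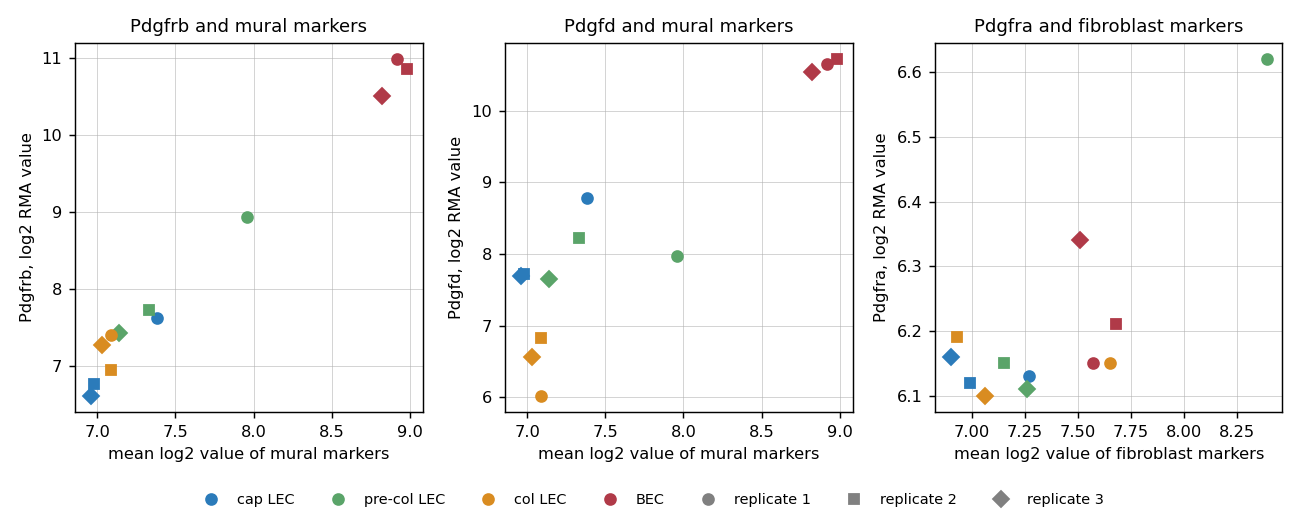
Log2 RMA value of Pdgfrb and Pdgfd against the mean log2 value of 14 mural markers, and of Pdgfra against that of 10 fibroblast markers, with 1 point per array. Pre-col LEC replicate 1 stands between the other LEC arrays and BEC for Pdgfrb (8.93 at a mural mean of 7.96). For Pdgfra, it reads 6.62 at a fibroblast mean of 8.39, and col LEC replicate 1 reads 6.15 at a mean of 7.65.

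Pdgfra, which encodes the alpha receptor, read 6.13, 6.12 and 6.16 in cap LEC, 6.62, 6.15 and 6.11 in pre-col LEC, 6.15, 6.19 and 6.10 in col LEC and 6.15, 6.21 and 6.34 in BEC. All groups overlapped, and pre-col LEC replicate 1 was the highest array. Its row also names Mir7025, a microRNA inside the Pdgfra locus in the RefSeq annotation, so the 2 cannot be separated by this row. No comparison passed the threshold: pre-col LEC minus cap LEC was 0.16 ± 0.12 (adjusted p = 0.843), or -0.01 with pre-col LEC replicate 1 left out, and the average of the LEC groups minus BEC was -0.04 ± 0.10 (adjusted p = 0.776).

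Fibroblasts express Pdgfra and were marked on the same array. Dcn, which encodes the fibroblast proteoglycan decorin, read 10.38, 6.50 and 7.58 in pre-col LEC, 9.54, 6.05 and 6.65 in col LEC, 7.03, 6.59 and 6.46 in cap LEC and 5.74, 5.67 and 5.82 in BEC. Of the 10 fibroblast markers tested, Dcn was the 1 that read higher in the mean of the LEC groups than in BEC, and 9 read lower. Dpt, another of the 10, read 9.20, 6.79 and 5.88 in pre-col LEC and 8.85, 8.97 and 7.89 in BEC. The summed linear signal of 10 fibroblast markers was 1514 to 4279 in pre-col LEC, 1357 to 2436 in col LEC, 1285 to 1617 in cap LEC and 2065 to 2543 in BEC. Pdgfra read 6.62 at a fibroblast mean of 8.39 in pre-col LEC replicate 1, and 6.15 at a mean of 7.65 in col LEC replicate 1. Both Pdgfra values lay near the middle of the control rows. The part of fibroblast RNA in the Pdgfra value of pre-col LEC replicate 1 was not tested.

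**Figure D3:**
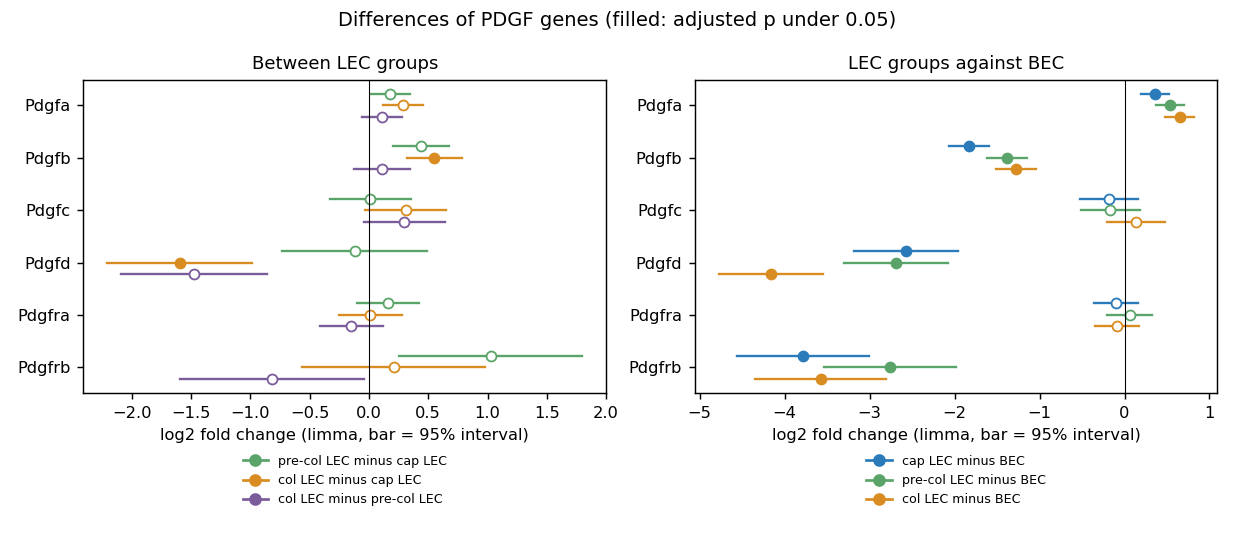
Log2 fold change of each PDGF gene between LEC groups (left) and of each LEC group against BEC (right), with limma's 95% interval; filled points have an adjusted p under 0.05. Between LEC groups, Pdgfb (0.55) and Pdgfd (-1.60) pass for col LEC minus cap LEC, and against BEC Pdgfa, Pdgfb, Pdgfd and Pdgfrb pass in each LEC group.

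Set against all 19709 genes tested, 2 of 6 PDGF genes were called between col LEC and cap LEC, where 1.66% of all genes were called. None was called between pre-col LEC and cap LEC, where limma called 0% of all genes (1262 had an unadjusted p under 0.05, and the smallest adjusted p was 0.0691). Of the 6, none was called between col LEC and pre-col LEC either, where 0.299% of all genes were called. Against BEC, 4 of 6 were called in each LEC group, beside 20.7% of all genes in cap LEC, 15.6% in pre-col LEC and 16.3% in col LEC. For LEC as a whole, taken as the mean of its 3 groups, it was 4 of 6 beside 22.7%. Pdgfa was the member called higher in all LEC groups, as were 5.41% of all genes. Pdgfb, Pdgfd and Pdgfrb were called lower in all of them, as were 6.25% of all genes. These 4 calls were kept in each of the 12 fits that left out 1 array. The members were chosen as a family, and no test of the family was made.

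Genes whose values were most alike to each member over the 12 arrays were ranked by Pearson's r, which describes arrays that share their groups and carries no p. Pdgfb ran most closely with Bcam (r = 0.986), Lmo7 (0.985) and Ace (0.985), and within the 9 LEC arrays the correlations were 0.931, 0.892 and 0.878. Ace, the angiotensin-converting enzyme of endothelium, read 11.83 to 11.86 in BEC and 8.67 to 9.24 in cap LEC. For Pdgfa, the genes were Sel1l3 (0.982), Foxc2 (0.976) and Slc7a1 (0.976). Foxc2, a transcription factor of lymphatic valves and collecting vessels, read 8.99, 9.39 and 9.30 in col LEC, 8.71, 8.94 and 8.96 in cap LEC and 7.92, 7.89 and 8.30 in BEC.

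Pdgfd was followed by Cd200 (0.978), Pxdn (0.978) and Dock8 (0.972). Cd200, a membrane glycoprotein, read 9.56, 9.76 and 9.65 in col LEC and 10.67, 10.44 and 10.38 in cap LEC, so that it too was lowest in col LEC. Pdgfrb ran with Ly6c2 (0.993), Ly6c1 (0.987) and Eps8l2 (0.987). Ly6c1 and Ly6c2 are close copies that can share probes, and Ly6c2 read 10.25 on pre-col LEC replicate 1 against 8.13 and 7.29 on replicates 2 and 3. For Pdgfra, Traj8 (0.947), Krtcap3 (0.946) and Fcor (0.945) came first, and each shared the high value of pre-col LEC replicate 1. Pdgfc was followed by Irx6 (0.887), Itgb1bp2 (0.885) and Cyp1a2 (0.879), and Itgb1bp2 and Cyp1a2 read at most 6.60 and 6.29.

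Of 10 genes that activate or retain PDGF ligands, 8 were tested. Between col LEC and cap LEC, 1 of the 8 was called, beside 1.66% of all genes. Plat, the tissue plasminogen activator that cleaves latent PDGF-C, read 9.33, 9.54 and 9.22 in col LEC and 8.02, 8.50 and 8.62 in cap LEC, without overlap. The difference was 0.99 ± 0.20 (adjusted p = 0.0265), and the call was lost without cap LEC replicate 1 or 2 or without any of the col LEC arrays, with an adjusted p of up to 0.103 (col LEC replicate 2 left out). The list's median difference was 0.07, beside 0.03 over all genes.

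Against BEC, 3 of these 8 genes were called higher and 1 lower in the mean of the LEC groups, where 22.7% of all genes were called. Sparc, a matrix protein that binds PDGF-B, read 12.46, 12.59 and 12.45 in BEC and 10.04 to 11.05 on the LEC arrays (-2.02 ± 0.13, adjusted p = 2.34e-07). Higher in LEC were Plaur, the urokinase receptor (1.06 ± 0.16, adjusted p = 0.000335), Thbs1, the matrix protein thrombospondin-1 (0.71 ± 0.10, adjusted p = 0.000191), and Ext1, a heparan sulfate polymerase (0.32 ± 0.09, adjusted p = 0.0208). The call of Ext1 was lost without BEC replicate 1 or 3 (adjusted p of up to 0.111). The list's median difference was 0.24.

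For co-receptors and signalling proteins of the PDGF receptors, 17 of 19 genes were tested and none was called between LEC groups. The smallest p-values among LEC belonged to the adaptor genes Gab1 (col LEC minus cap LEC 0.32 ± 0.10, adjusted p = 0.226) and Nck1 (0.23 ± 0.11, adjusted p = 0.493). Against BEC, 3 were called higher and 6 lower in the mean of the LEC groups, with a median of 0. Of all genes, 22.7% were called in that comparison. Shc1, an adaptor that binds activated receptors, was higher in LEC (1.26 ± 0.11, adjusted p = 2.30e-06). Lower in LEC were Ptprj, a phosphatase that acts on the beta receptor (-1.48 ± 0.15, adjusted p = 1.15e-05), Lrp1, an endocytic partner of the beta receptor (-1.25 ± 0.22, adjusted p = 0.00107), and the adaptor gene Nck2 (-0.76 ± 0.10, adjusted p = 0.000153). Within LEC, Lrp1 and Ptprj were highest on pre-col LEC replicate 1, at 8.50 and 6.55.

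Genes with a known link to flow, hypoxia or Pdgfb transcription numbered 8, all tested. Between col LEC and cap LEC, where 1.66% of all genes were called, 2 of the 8 were called, both higher in col LEC. Nos3, the endothelial nitric oxide synthase, read 10, 10.14 and 9.83 in col LEC, 9.19, 9.35 and 8.88 in pre-col LEC, 8.54, 8.61 and 8.69 in cap LEC and 10.52, 10.47 and 10.37 in BEC. The order of these 4 groups held without overlap. Nos3 was higher in col LEC than in cap LEC (1.38 ± 0.12, adjusted p = 0.000127) and than in pre-col LEC (0.85 ± 0.12, adjusted p = 0.0127), the latter call being lost without col LEC replicate 1 or 2 (adjusted p of up to 0.0618). Edn1, which encodes the vasoconstrictor endothelin-1, was higher in col LEC than in cap LEC (0.70 ± 0.14, adjusted p = 0.0268), a call lost when any array of these 2 groups was left out (adjusted p of up to 0.116, without cap LEC replicate 2).

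Against BEC, where 22.7% of all genes were called, 5 of these 8 genes were called lower in the mean of the LEC groups and none higher. They were Edn1 (-1.66 ± 0.11, adjusted p = 3.52e-07), Nos3 (-1.20 ± 0.10, adjusted p = 1.82e-06), the hypoxia-inducible factor genes Epas1 (-1.20 ± 0.07, adjusted p = 6.28e-08) and Hif1a (-0.63 ± 0.09, adjusted p = 0.000275), and Srf, a factor that drives immediate early genes, whose call was lost without BEC replicate 2 or 3 (adjusted p of up to 0.184). The flow-responsive factors Klf2 and Klf4 were not called in any of these comparisons.

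The other class III receptor tyrosine kinases and their ligands numbered 7, all tested, and none was called between LEC groups. The smallest p-values there belonged to Flt3l, which encodes the Flt3 ligand (col LEC minus cap LEC -0.27 ± 0.10, adjusted p = 0.342), and Csf1r (pre-col LEC minus cap LEC 0.17 ± 0.09, adjusted p = 0.806). Against BEC, 4 of the 7 were called lower in the mean of the LEC groups, beside 22.7% of all genes called. The list median was -1.14. Kitl, which encodes stem cell factor, read 11.59, 11.53 and 11.20 in BEC and 5.78 to 7.50 in LEC (-4.92 ± 0.28, adjusted p = 6.99e-08). Its receptor gene Kit (-2.21 ± 0.14, adjusted p = 1.42e-07) and the ligand genes Csf1 (-1.58 ± 0.10, adjusted p = 2.22e-07) and Il34 (-1.14 ± 0.09, adjusted p = 1.84e-06) were also lower. The PDGF receptors are of this class as well. In the same comparison Pdgfrb differed by -3.37 and Pdgfra, whose signal lay near the middle of the control rows, by -0.04.

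**Figure D4:**
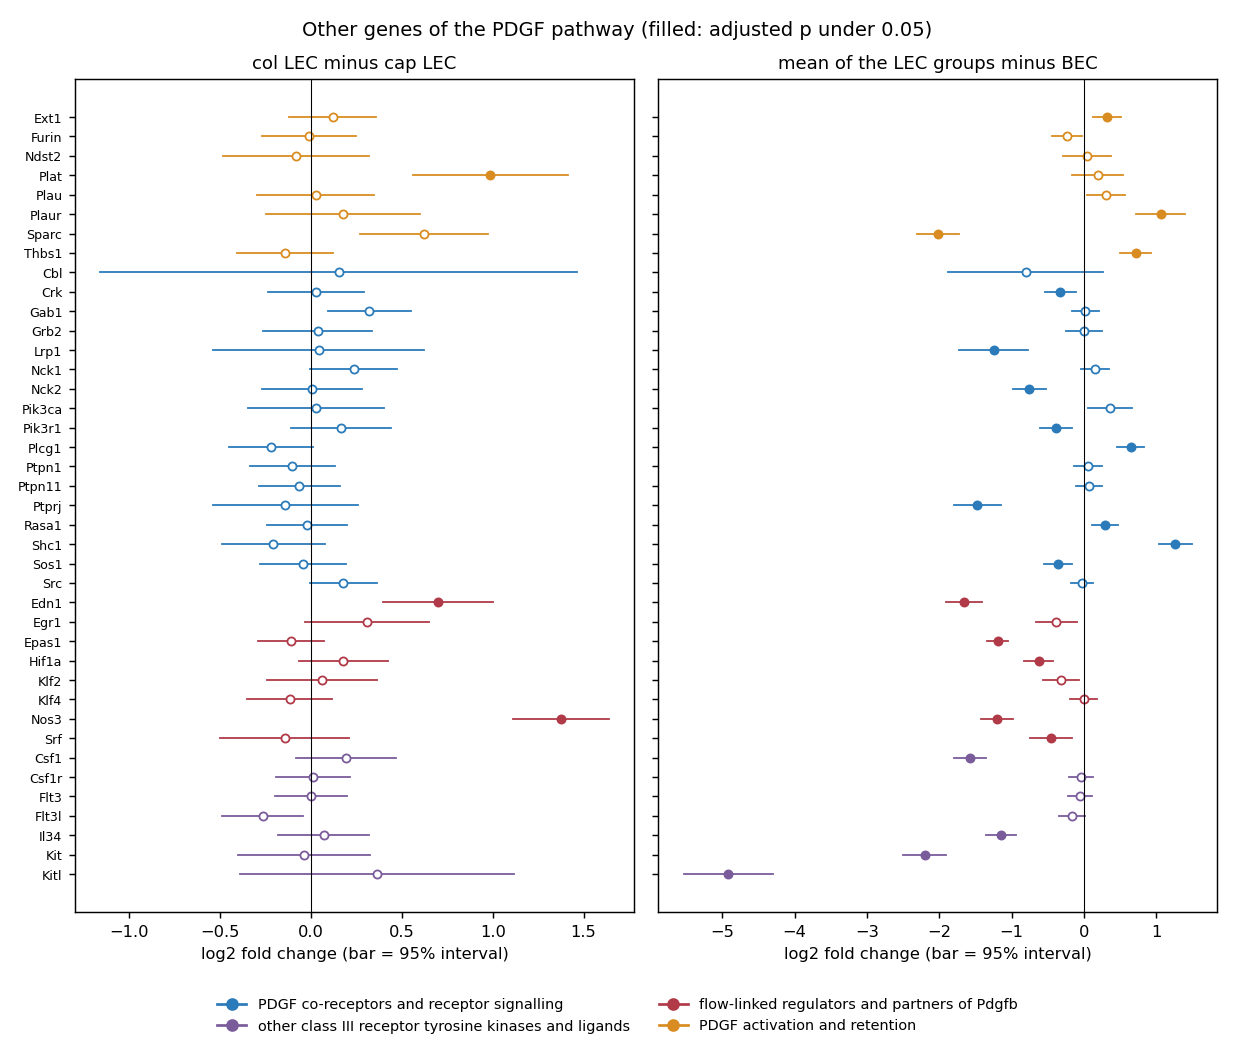
Log2 fold change of the tested genes of the 4 pathway lists for col LEC minus cap LEC (left) and the average of the LEC groups minus BEC (right), with limma's 95% interval; filled points have an adjusted p under 0.05. On the left Plat (0.99), Edn1 (0.70) and Nos3 (1.38) are filled, and on the right Kitl (-4.92) lies furthest from 0.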

How the data were processed

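RNA of sorted cells was profiled on 12 whole-transcript arrays; per the labels, 500 pg of RNA from each sample was amplified into biotinylated sense-strand cDNA. The authors deposited log2 values after RMA, per the submitters' processing notes; the software, its version, the annotation and the genome build are not given in the sources used, so no coordinates are printed. RMA compresses weak signals and hides changes in total RNA per cell.

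Of 72688 rows, 31267 named 1 gene, 1483 several and 33206 transcript clusters none, by the platform annotation with symbols updated through RefSeq (GRCm38.p6, names only). The brightest row naming a gene alone stood for it; the Pdgfra row, which also names a microRNA, was kept as a member. Each member had 1 row: TC0500003482.mm.1 (Pdgfa), TC1500001891.mm.1 (Pdgfb), TC0300000631.mm.1 (Pdgfc), TC0900000035.mm.1 (Pdgfd), TC0500000709.mm.1 (Pdgfra) and TC1800000623.mm.1 (Pdgfrb). Nrp1, Grk2 and Ndst1 had no row naming them alone and were not tested, and 1 other listed gene is not reported here.

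Group means were fitted with limma 3.58.1 (statmod 1.5.0, R 4.3.3) on all 12 arrays, with eBayes, and p-values were two-sided and adjusted by Benjamini-Hochberg over all 19709 genes tested. The threshold for a call was an adjusted p of 0.05. Fold changes carry limma's moderated SE. The number of arrays limits the precision: the median SD within groups was 0.141, with 8 residual and 3.63 prior degrees of freedom. The fit was tested on simulated data. Alternatives covered the row, filter, normalization, array weights, variance trend, samples in the fit, replicate block and each array left out. Members, pathway lists and marker lists were chosen with earlier results of these data known. Named genes are all members, the 3 genes most alike to each (leaving out predicted genes, small RNAs and olfactory and vomeronasal receptors), and, per pathway list, the called genes with the largest changes, at most 4 between LEC groups and 4 against BEC, or the 2 with the smallest p; Klf2 and Klf4 were named after their values were seen.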

Additional observations from a re-analysis of the deposited data

How the results depend on the processing

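The calls of Pdgfa, Pdgfb, Pdgfd and Pdgfrb against BEC kept their direction and side of the threshold in every alternative in which the gene was tested, while those of Pdgfb and Pdgfd between col LEC and cap LEC did not. Over member results and alternatives, 905 values kept their side, 4 newly passed, 9 no longer passed and 21, of Pdgfc, Pdgfd or Pdgfra near 0, changed sign. The causes were not tested. Only 3 arrays a group and signal near the negative controls, for Pdgfc and Pdgfra throughout, Pdgfd in col LEC and Pdgfrb on 2 cap LEC arrays, limit what could be seen. The stricter filter left 4397 genes and did not test Pdgfa, Pdgfc or Pdgfra. Pdgfb, Pdgfd and Pdgfrb passed it only through their BEC arrays, where they were high, so its fits are no support for their calls. For the average of the LEC groups minus BEC, using only the groups compared is the same fit and was not run apart.

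Between col LEC and cap LEC, array weights called 798 genes and leaving out replicate 1 of both pre-col LEC and col LEC 201, an alternative chosen after seeing the data, as was the use of rows naming microRNAs as well. Members called fell to 0 with only the groups compared and to 0 with both arrays left out, where Pdgfb had an adjusted p of 0.103 and Pdgfd of 0.0787. Pdgfra was -0.05 with cyclic loess and -0.03 with quantile normalization. Between pre-col LEC and cap LEC, the genes called were 12 with the stricter filter, 13 with cyclic loess, 28 with array weights, 1 with a variance trend, 3 with the replicate block and 1 with both arrays left out. There Pdgfc was -0.04 with cyclic loess, -0.03 with quantile normalization and -0.08 with array weights, and Pdgfra -0.01 with both arrays left out. Between col LEC and pre-col LEC, the genes called were 155 with array weights, 5 with only the groups compared and 19 with both arrays left out, 1 member (Pdgfd) was called with the stricter filter and 1 with array weights, and Pdgfra was 0.02 with both arrays left out. With the stricter filter, 1777 genes were called for cap LEC, 1334 for pre-col LEC, 1456 for col LEC and 1890 for the mean of the LEC groups against BEC. Pdgfra in pre-col LEC minus BEC was -0.01 with array weights and -0.11 with both arrays left out. For the average of the LEC groups minus BEC, Pdgfc was 0.0027 with array weights and Pdgfra 0.02 with cyclic loess.

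Leaving out 1 array at a time gave 180 to 354 genes called between col LEC and cap LEC, 0 to 1 between pre-col LEC and cap LEC and 24 to 63 between col LEC and pre-col LEC. Members called were 0 to 2 in the first and 0 to 1 in the last. The differences that changed sign ranged, for col LEC minus cap LEC, from -0.01 to 0.04 (Pdgfra). For pre-col LEC minus cap LEC they ranged from -0.07 to 0.09 (Pdgfc), -0.31 to 0.24 (Pdgfd) and -0.01 to 0.25 (Pdgfra). Pdgfra ranged from -0.24 to 0.02 for col LEC minus pre-col LEC, -0.11 to 0.15 for pre-col LEC minus BEC and -0.10 to 0.01 for the average of the LEC groups minus BEC, where Pdgfc ranged from -0.15 to 0.09.

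The replicate numbers did not meet the rule for pairing, a correlation over 0.1 in every pair: deviations from the group means correlated at -0.0934 to 0.208 (median 0.0914) between arrays of the same number and -0.143 to 0.176 (median -0.0348) between others, so same-numbered arrays were somewhat more alike, but not in every pair. With the replicate block, 376 genes were called between col LEC and cap LEC, Pdgfb had an adjusted p of 0.00987 and Pdgfd of 0.0221, and the block changed no call of a member.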
